A study of Mus musculus with 12 samples.

Results

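The comparison set isolated mouse optic nerves kept under oxygen-glucose deprivation (OGD) with CX-4945 against optic nerves kept under OGD with MS-275, 3 samples against 3 of the 12 in the series. All samples came from male C57Bl/6 mice, and both drug groups had OGD in common. The samples were picked by the agent their labels name, OGD+CX-4945 or OGD+MS-275. The other 6 samples, 3 of OGD alone and 3 Control samples without OGD or drug, entered the fit to estimate the spread and are quoted where they place a drug value. The sources used here do not give doses, durations or how many nerves or animals went into a sample. The labels do not say whether the samples of a group came from separate animals, so the p-values below measure only the spread between these samples. Each sample was read in 1 lane of an nCounter miRNA panel, which counts colour-coded barcodes bound to each miRNA and does not amplify the RNA. Of the 566 mouse miRNA probes, 217 were above the detection limit in at least 3 of the 12 lanes and were tested. The limit of a lane is the mean plus 2 SD of its negative-control probes.

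CX-4945, also known as silmitasertib, inhibits protein kinase CK2, and MS-275, also known as entinostat, inhibits class I histone deacetylases. The optic nerve is a white matter tract that holds axons, oligodendrocytes, astrocytes, microglia and blood vessels but no nerve cell bodies. A miRNA is a short RNA that guides Argonaute proteins to messenger RNAs, mostly through pairing of its seed, bases 2 to 8, so miRNAs with the same seed are counted as a family. The question of the comparison is where the miRNA profiles of nerves given the one or the other inhibitor during OGD differ.

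The sequences below belong to the miRNAs whose values are described first, with the seed in capitals and everything else in lower case, 5′ to 3′. They are the RefSeq mature sequences of build GRCm38.p6, matched by miRNA name (older probe names were brought to the present name of the arm), and 30 of 38 names looked up had an entry. miR-669f, miR-669a, miR-124, miR-720, miR-2133, miR-2134, miR-2140 and miR-2141 are named only. The first 4 share a seed, miR-103 and miR-107 are shown for the single base that separates them, and the pairs miR-338-5p with miR-338-3p and miR-144 with miR-451 are shown because they come from the same hairpin or the same short stretch of chromosome 11.
let-7d: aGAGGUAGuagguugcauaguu
let-7g: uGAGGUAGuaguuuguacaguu
miR-98: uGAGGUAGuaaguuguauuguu
miR-1961: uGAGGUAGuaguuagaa
miR-1839-5p: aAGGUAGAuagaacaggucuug
miR-338-5p: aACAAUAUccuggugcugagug
miR-338-3p: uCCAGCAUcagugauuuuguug
miR-103: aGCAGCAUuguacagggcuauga
miR-107: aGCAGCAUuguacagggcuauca
miR-144: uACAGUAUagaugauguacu
miR-451: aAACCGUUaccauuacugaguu

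In that build let-7d lies at chr13:48536078-48536099 on the minus strand, let-7g at chr9:106178846-106178867 on the plus strand, and miR-98 at chrX:151913229-151913250 on the plus strand. The 17 bases of miR-1961 lie at chr5:92788465-92788481 on the minus strand and share their first 13 bases with let-7g. miR-338-5p (chr11:120014816-120014837) and miR-338-3p (chr11:120014781-120014802) are the opposite arms of 1 hairpin on the minus strand, within an intron of Aatk. miR-103 is encoded at chr2:131288103-131288125 and at chr11:35782447-35782469, both on the plus strand, and miR-107 at chr19:34820700-34820722 on the minus strand. Counted from the 5′ end, miR-107 differs from miR-103 by G22C, near the 3′ end, so a probe may not tell the pair fully apart. miR-144 (chr11:78073047-78073066) and miR-451 (chr11:78073186-78073207) are both on the plus strand with their first bases 139 bases apart.

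No miRNA passed the test between the drugs. edgeR's quasi-likelihood test with Benjamini-Hochberg adjustment called 0 of 217 probes (0%), with a lowest adjusted p of 0.920. Without adjustment 9 probes (4.15%) had p below 0.05, 3 with a higher mean with CX-4945 (1.38%) and 6 with a lower one (2.76%), where 10.85 would be met by chance at that threshold. DESeq2 called 0 with 7 at an unadjusted p below 0.05, and limma-voom called 0 with 9. The mean was higher with CX-4945 for 52.1% of the probes and lower for the other 104 (47.9%). That split depends on how lanes are scaled. The mean was higher for 77.0% with upper-quartile factors, 75.1% with ligation scaling, 5.53% with mRNA scaling and 18.0% in the authors' processed signal. Higher and lower means below are counted from a log2 fold change of 0 in the main scaling. They are to be read beside the median of all probes. The median log2 fold change was 0.02, with CX-4945 over MS-275 here and throughout, the median absolute log2 fold change was 0.13 and the median standard error (SE) was 0.18. The 95% interval of the difference lay inside 2-fold in both directions for 208 probes and inside 1.5-fold for 133. Background was not subtracted from these counts, and 150 of the 217 probes were above the limit in all 12 lanes. How many intervals stay inside with background subtracted was not tested. The 9 probes whose interval reached 2-fold were miR-2134, miR-678, miR-2141, miR-2140, miR-34b-5p, miR-2146, miR-7a, miR-1983 and miR-7b. The 3 samples of a drug lay wholly above or below the 3 of the other for 19 probes (8.76%), 8 above with CX-4945 (3.69%) and 11 below (5.07%). No probe was above the limit in all 3 lanes of one drug and in none of the other. These are bulk samples, in which fewer cells of a type and less RNA per cell cannot be told apart.

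**Figure D1:**
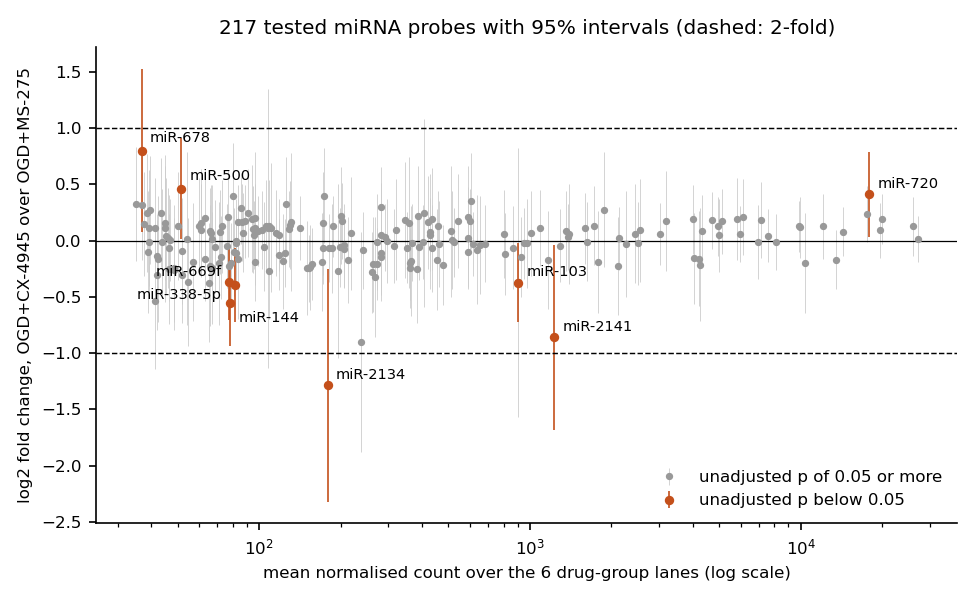
The 217 tested probes by mean normalised count over the drug lanes (x axis, log scale) and log2 fold change of OGD+CX-4945 over OGD+MS-275 with its 95% interval (y axis), each point 1 probe, with the 9 probes of unadjusted p below 0.05 marked. The cloud is centred near 0.02 on the log2 scale, and the widest difference is that of miR-2134 at -1.29.

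The lanes themselves differed. The total count over all miRNA probes was 370328, 359306 and 542933 in the CX-4945 lanes, against 465973, 439292 and 338367 in the MS-275 lanes. The 3 positive ligation controls are a measure of how far the tagging of small RNA went in a lane. Their geometric mean was 1667, 2793 and 3787 counts with CX-4945, against 3155, 2991 and 2914 with MS-275. CX-4945 replicate 1 had the lowest ligation value of the 6 lanes, the highest limit at 60.6 counts and the fewest mouse probes above it, 175, against 192 to 224 in the MS-275 lanes. Over the 150 probes above the limit in all 12 lanes, the median SD of log2 normalised counts was 0.23 among the CX-4945 samples and 0.17 among the MS-275 samples. The SD was wider with CX-4945 for 97 of these probes and wider with MS-275 for 53. The closest pair of lanes across the drugs was CX-4945 replicate 2 and MS-275 replicate 3, with a median absolute log2 difference of 0.13, and the farthest was CX-4945 replicate 1 and MS-275 replicate 2, at 0.34. In a fit of the 12 lanes with a mean for each group, 25 probes had a called slope on the ligation value within groups, miR-103 among them. The numbers in the sample titles fall into 3 sets, and 2 of them hold both drugs. The labels do not say what the sets are.

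**Figure D2:**
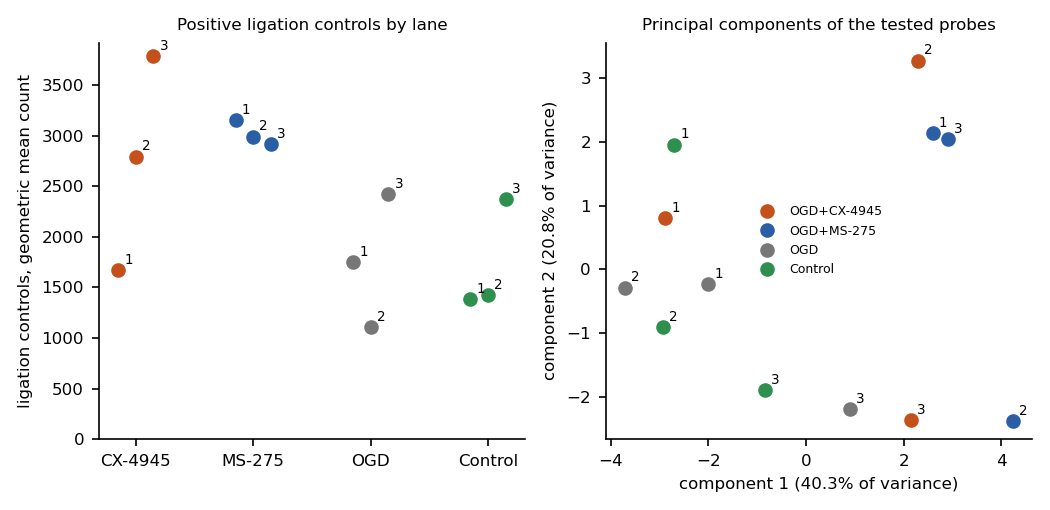
Geometric mean count of the positive ligation controls by group (left) and the first and second principal components of the tested probes (right), with a numbered point for each of the 12 lanes. The CX-4945 lanes span 1667 to 3787 counts of ligation control, and the MS-275 lanes 2914 to 3155. On the right the MS-275 lanes have the 3 highest scores on the first component, and the lanes of each drug spread over the second.

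Probe by probe, the lowest p belonged to miR-144, a red-cell miRNA transcribed together with miR-451. It had normalised counts of 69.7, 53.8 and 66.4 in the CX-4945 samples, against 83.9, 111 and 83.7 in the MS-275 samples. All CX-4945 samples lay below all MS-275 samples, and OGD alone had 73.7, 64.2 and 88.0, across the gap between the drugs. The log2 fold change of miR-144 was -0.55 (SE 0.18, 95% interval -0.94 to -0.17), which did not pass (edgeR adjusted p = 0.920). Its neighbour miR-451 averaged 850 ± 192 normalised counts with CX-4945 and 887 ± 103 with MS-275 (SD, n = 3 each), a log2 fold change of -0.06 (SE 0.17). miR-486, the other erythroid miRNA measured, stood at 0.10. The raw count of miR-144 was 6.69, 6.33 and 10.1% of that of miR-451 with CX-4945, against 10.7, 11.3 and 9.40% with MS-275. These shares overlapped, so a lower miR-144 relative to miR-451 was seen in CX-4945 replicates 1 and 2 and not in replicate 3.

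miR-338-5p is the other arm of the hairpin that gives miR-338-3p, a miRNA of maturing oligodendrocytes. It had 64.4, 60.8 and 75.6 normalised counts with CX-4945, 85.4, 79.2 and 97.0 with MS-275, and 49.8, 57.9 and 65.8 with OGD alone. The drug groups did not overlap, the MS-275 samples were all above the OGD samples, and the CX-4945 samples overlapped them. The log2 fold change was -0.37 (SE 0.16) and did not pass (edgeR adjusted p = 0.920). miR-338-3p itself averaged 20261 ± 3006 with CX-4945 and 18985 ± 2157 with MS-275 (SD, n = 3 each), a log2 fold change of 0.09 (SE 0.12). Since both arms were read in the same lanes, their raw counts give a ratio that no scaling of lanes touches. miR-338-5p was 0.315, 0.354 and 0.326% of miR-338-3p with CX-4945, 0.473, 0.369 and 0.556% with MS-275, and 0.228, 0.291 and 0.313% with OGD alone. The 3 groups did not overlap in this share, although with 3 samples a side the smallest exact two-sided permutation p is 0.1. The lowest CX-4945 share, 0.315%, was barely above the highest OGD share, 0.313%. The raw counts include background, and miR-338-5p was not above the limit in every lane. Whether the shares stay apart with background subtracted was not tested. With the negative-control mean subtracted, the log2 fold change of miR-338-5p between the drugs was -0.53 (SE 0.29). Its unadjusted edgeR p was then 0.0878, against 0.0322 in the main fit.

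miR-103 targets genes of lipid and insulin metabolism and lies in introns of pantothenate kinase genes. It had 676, 833 and 856 normalised counts with CX-4945, against 1038, 1069 and 960 with MS-275. Every CX-4945 sample was lower, with a log2 fold change of -0.37 (SE 0.17) that did not pass (edgeR adjusted p = 0.920) and was -0.28 without CX-4945 replicate 1. miR-107, which shares the seed, averaged 176 ± 14.6 with CX-4945 and 185 ± 1.31 with MS-275 (SD, n = 3 each), a log2 fold change of -0.07 (SE 0.14). The raw ratio of miR-103 to miR-107 was 4.24, 4.47 and 4.68 with CX-4945, 5.63, 5.74 and 5.22 with MS-275, and 4.74, 4.70 and 4.66 with OGD alone. The drugs did not overlap in that ratio and lay on either side of OGD alone, apart from CX-4945 replicate 3, which lay among the OGD samples. Control had ratios of 3.82, 4.05 and 4.94. That range holds all the CX-4945 and OGD ratios and lies below the MS-275 ratios. miR-103 rose with the ligation value over the 12 lanes at 0.39 log2 units per log2 unit (adjusted p of the slope 0.0257 in edgeR). With the ligation value as a covariate, the log2 fold change of miR-103 between the drugs was -0.30 (SE 0.11). With ligation scaling it was -0.23 (SE 0.28). The cause of the difference was not tested.

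miR-669f is a member of the large miRNA cluster in an intron of Sfmbt2. It had 70.8, 59.8 and 79.8 normalised counts with CX-4945, against 95.1, 91.4 and 90.9 with MS-275. The MS-275 samples lay close together and above every CX-4945 sample, with a log2 fold change of -0.39 (SE 0.16) that did not pass (edgeR adjusted p = 0.920). OGD alone, at 66.4, 67.3 and 77.4, lay within the range of the CX-4945 samples. miR-669a of the same cluster went the other way, with 106.7, 86.7 and 80.5 with CX-4945 against 75.6, 53.1 and 78.6 with MS-275, again without overlap (log2 fold change 0.40, SE 0.22). Over the 8 tested members of the cluster, 5 had a higher and 3 a lower mean with CX-4945, and the median was 0.02, the same as over all probes.

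The probe named miR-720 reads what is now taken to be a tRNA fragment. It stood at 27451, 17655 and 16297 with CX-4945, against 14083, 18492 and 13589 with MS-275. The groups overlapped, and CX-4945 replicate 1 was far above the rest. The log2 fold change was 0.41 (SE 0.18) with all samples and 0.14 without that replicate. The probes for miR-1937a with miR-1937b and for miR-1937c, also tRNA fragments, had log2 fold changes of 0.21 and 0.22, or 0.10 and 0.01 without CX-4945 replicate 1, so all 3 probes of this kind had a higher mean with CX-4945, with a median of 0.22, which was 0.10 without CX-4945 replicate 1 and -0.06 with mRNA scaling, 0.16 above the median of all probes.

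The remaining pair among the 9 is miR-678 and miR-500. miR-678 falls outside the rule for named miRNAs and was picked after its values were seen. miR-500 comes under the rule only as a member of the Clcn5-intron cluster. miR-678 had 72.9, 33.9 and 35.3 normalised counts with CX-4945 and 38.9, 18.3 and 21.4 with MS-275, and was above the limit in only 1 lane of each drug. miR-500, from an intron of Clcn5, had 58.1, 56.8 and 63.6 with CX-4945 and 37.4, 57.4 and 34.7 with MS-275, and was above the limit in 2 lanes of each drug. Both overlapped between the drugs, and their log2 fold changes of 0.80 (SE 0.34) and 0.46 (SE 0.21) rest on counts near the background. miR-678 stood at 0.37 without CX-4945 replicate 1 and at 1.24 without MS-275 replicate 1. miR-500 stood at 0.72 without MS-275 replicate 2.

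**Figure D3:**
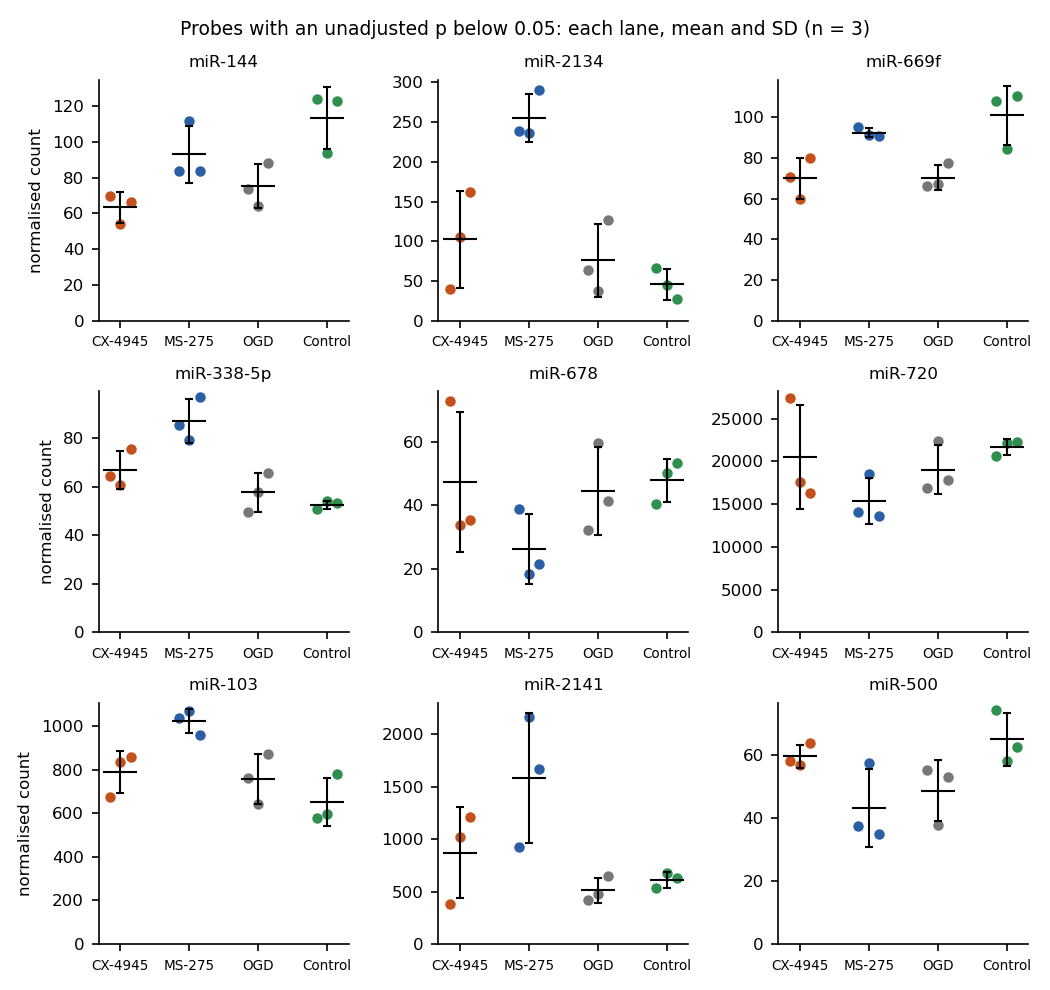
Normalised counts (y axis, from 0) of the 9 probes with an unadjusted p below 0.05 in OGD+CX-4945, OGD+MS-275, OGD and Control, with a point for each sample and lines for mean and SD (n = 3). For miR-144, miR-338-5p, miR-103, miR-669f and miR-2134 the CX-4945 points all lie below the MS-275 points.

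The widest differences belonged to a group of probes numbered miR-2132 to miR-2146. What these probes measure was not checked, and the deposited files give them no annotation beyond the name. Of the 12 on the panel 6 were tested, and all 6 had a lower mean with CX-4945 (0 called, 2 with an unadjusted edgeR p below 0.05), with a median log2 fold change of -0.62, against 0.02 over all probes. miR-2134 had 40.1, 106 and 162 normalised counts with CX-4945, 239, 237 and 290 with MS-275, and 63.6, 37.6 and 127 with OGD alone. The drugs did not overlap, while CX-4945 and OGD did. In CX-4945 replicate 1 the raw count of miR-2134, 38, was below the limit. The log2 fold change was -1.29 (SE 0.47, 95% interval -2.32 to -0.25) and did not pass (edgeR adjusted p = 0.920). It was -0.92 without CX-4945 replicate 1.

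miR-2141 had 386, 1022 and 1210 normalised counts with CX-4945, against 927, 2163 and 1670 with MS-275. The groups overlapped, and its log2 fold change of -0.86 (SE 0.38) was -0.51 without CX-4945 replicate 1 and -0.57 without MS-275 replicate 2. miR-2140 had 84.5, 158 and 252 with CX-4945 and 172, 399 and 363 with MS-275, also with overlap (log2 fold change -0.90, SE 0.44), and stood at -0.59 without CX-4945 replicate 1 and -1.42 without replicate 3. miR-2133 had 30.6, 66.8 and 71.3 with CX-4945 and 73.4, 74.8 and 73.5 with MS-275, where CX-4945 replicate 1 alone was low (log2 fold change -0.37, or -0.10 without it). The other tested probes of the group, miR-2146 and miR-2132, stood at -0.27 and -0.20, and without CX-4945 replicate 1 at 0.04 and -0.04. The group's summed normalised count averaged 1439 ± 667 with CX-4945, 2518 ± 797 with MS-275 and 958 ± 301 with OGD alone (SD, n = 3 each), and ranged from 680 to 1933 with CX-4945 and from 1637 to 3189 with MS-275. Without CX-4945 replicate 1 the group's median was -0.30. The drug comparisons with OGD alone share the OGD samples, and gave a median of 0.42 for CX-4945 over OGD and 1.24 for MS-275 over OGD. miR-2133 was the 1 probe of 217 (0.461%) called for MS-275 against OGD alone, at a log2 fold change of 1.45 (edgeR adjusted p = 0.0264), and for CX-4945 against OGD alone, where 0 of 217 (0%) were called, it stood at 1.08. Both fold changes of miR-2133 rest on OGD counts near the background. The OGD lanes had limits of 46.1 to 53.7 counts and negative-control means of 18 to 26.3.

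On the other side, 4 of the 12 miRNAs with the smallest p among the higher means with CX-4945 have the let-7 seed. let-7 miRNAs restrain growth and are abundant in differentiated tissue. Of the 10 tested probes with the seed GAGGUAG, 8 had a higher mean with CX-4945, with a median log2 fold change of 0.13, against 52.1% and 0.02 over all probes, and none was called. The 10 are the 9 let-7 family probes and miR-1961, which was added for its seed and is itself among the 12. Of the 9 alone, 7 had a higher and 2 a lower mean, with a median of 0.13. let-7d had 21329, 15971 and 19715 normalised counts with CX-4945, against 15487, 17117 and 15737 with MS-275. CX-4945 replicate 2 lay among the MS-275 samples, and the log2 fold change was 0.24 (SE 0.12), or 0.15 without CX-4945 replicate 1. let-7g had 21768, 18677 and 23264 with CX-4945, against 17301, 20244 and 18169 with MS-275, again with overlap through CX-4945 replicate 2 (0.19, SE 0.10, or 0.07 without CX-4945 replicate 3). miR-98 had 655, 617 and 648 with CX-4945, against 581, 583 and 531 with MS-275, without overlap, but the difference was small (0.18, SE 0.13). miR-1961, whose probe targets a sequence alike to let-7g over its first bases, had 93.0, 104 and 86.2 with CX-4945 and 89.9, 74.8 and 65.3 with MS-275, with overlap (0.29, SE 0.15). How far these probes bind each other's miRNA was not tested, so their values may not be independent. let-7i and let-7c stood at 0.13, let-7b at 0.08, let-7e at 0.06, let-7a at -0.01 and let-7f at -0.02. With lanes scaled by the mRNA probes the median of the 9 let-7 family probes was -0.13, still 0.09 above that of all probes, and in the authors' processed signal it was -0.05, or 0.12 above.

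miR-1839-5p has the letters AGGUAG of the let-7 seed shifted by a base toward its 5′ end. It had 348, 294 and 294 with CX-4945 and 242, 245 and 273 with MS-275. It did not overlap between the drugs (log2 fold change 0.30, SE 0.17). miR-1198 had 245, 186 and 162 with CX-4945, against 157, 140 and 151 with MS-275, also without overlap (0.40, SE 0.20, or 0.22 without CX-4945 replicate 1). miR-199a-3p of mesenchymal cells, at 0.35 (SE 0.20), the probe for miR-466a-3p with miR-466b-3-3p, at 0.32 (SE 0.20), miR-361, at 0.25 (SE 0.18), and miR-204 of pigment epithelium and meninges, at 0.18 (SE 0.12), complete the 12 with the smallest p on this side. miR-1198, miR-199a-3p and the miR-466 probe were among the 25 probes with a called slope on the ligation value, and without CX-4945 replicate 1 miR-199a-3p stood at 0.14 and the miR-466 probe at 0.10.

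On the lower side the 12 were completed by miR-362-3p, at -0.25 (SE 0.14), miR-24 of the miR-23/27/24 clusters, at -0.28 (SE 0.17), p53-induced miR-192, at -0.31 (SE 0.20), and miR-130a of vascular cells, at -0.24 (SE 0.17). miR-192 had 46.5, 41.9 and 50.8 with CX-4945, against 56.2, 60.9 and 56.1 with MS-275. These values do not overlap but lie near the limit, which miR-192 passed in 1 CX-4945 lane and in 3 MS-275 lanes. miR-24 had 211, 250 and 246 with CX-4945, against 296, 315 and 250 with MS-275, and CX-4945 replicate 2 met the lowest MS-275 sample at this rounding. miR-30e, miR-378 and miR-140 also lay lower in every CX-4945 sample, at log2 fold changes of -0.21, -0.21 and -0.20. Of the 24 miRNAs chosen by p, 12 on each side, 3 differed by more than 1.5-fold.

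**Figure D4:**
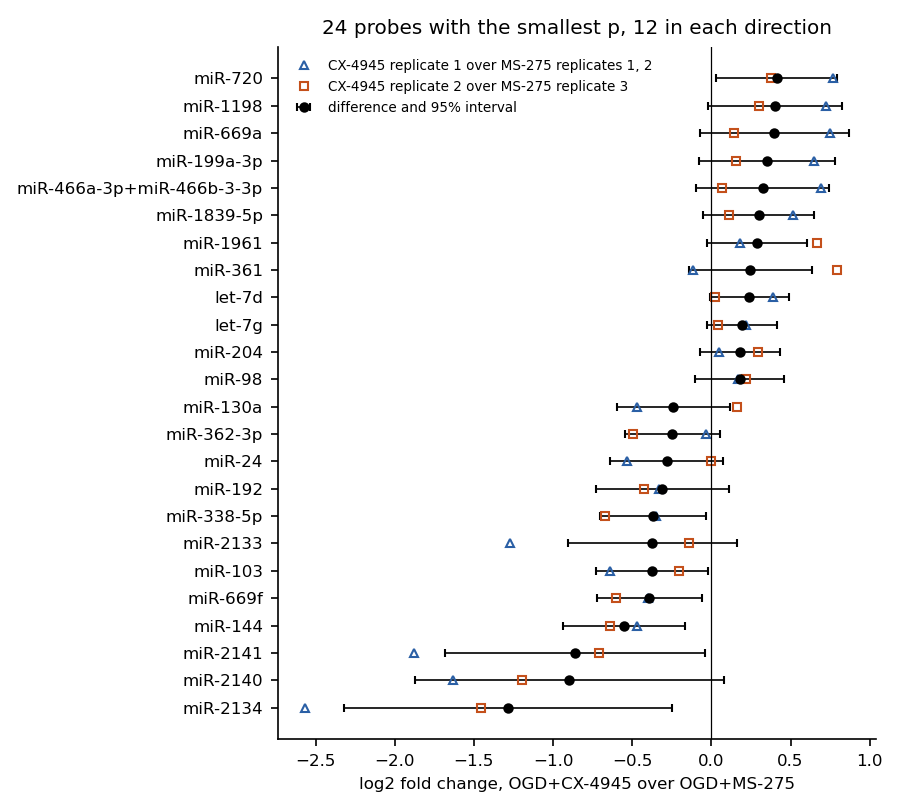
Log2 fold change of OGD+CX-4945 over OGD+MS-275 with its 95% interval for the 24 probes chosen by p (x axis), a probe per row. Black points and bars are the fit, and open symbols are the difference within the 2 sets of title numbers that hold both drugs. miR-2134 lies lowest, with an interval from -2.32 to -0.25.

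Cell-type miRNAs differed little between the drugs. Of 8 oligodendrocyte probes, 3 had a higher and 5 a lower mean with CX-4945, with none called and a median of -0.18, or -0.02 without CX-4945 replicate 1. miR-219, which drives oligodendrocyte maturation, averaged 9646 ± 2218 with CX-4945 and 11043 ± 2874 with MS-275 (SD, n = 3 each), a log2 fold change of -0.19 (SE 0.21), or -0.05 without CX-4945 replicate 1. The summed normalised count of the 8 ranged from 32208 to 41223 with CX-4945 and from 32741 to 41451 with MS-275. The 4 astrocyte-associated probes all had a lower mean with CX-4945, with a median of -0.16 that was 0.01 without CX-4945 replicate 1, and 3 of the 4 had a called slope on the ligation value. miR-29a stood at -0.16 (SE 0.19), miR-29b at -0.21 (SE 0.24), miR-29c at -0.16 (SE 0.20) and miR-9 at -0.01 (SE 0.12).

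Among 6 microglia and leukocyte probes 4 had a higher mean with CX-4945 and 2 a lower one, with a median of 0.08. miR-223 of myeloid cells stood at 0.22 (SE 0.20) and miR-142-3p of all blood lineages at -0.06 (SE 0.15). Of 7 vascular and mesenchymal probes 2 had a higher mean and 5 a lower one, with a median of -0.13, endothelial miR-126-3p at 0.12 (SE 0.13) and smooth-muscle miR-143 and miR-145 at -0.18 and -0.17. The 3 epithelial probes, miR-203, miR-205 and miR-200b, all had a higher mean with CX-4945, with a median of 0.27. Their summed count was 184 ± 18.2 with CX-4945 and 156 ± 29.0 with MS-275 (SD, n = 3 each), and the ranges, 164 to 198 and 139 to 190, overlapped. Neuronal probes were split 4 to 4 with a median of 0.00, and miR-124, the main neuronal miRNA, averaged 7721 ± 678 with CX-4945 and 7480 ± 512 with MS-275 (SD, n = 3 each). The 4 skeletal muscle probes were split 2 to 2, with a median of 0.04.

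Among miRNAs of hypoxia, injury and stress, the hypoxia and inflammation probes overlapped between the drugs. The p53-induced probes were lower with CX-4945 as a sum in the main scaling of lanes, with none called. miR-210, which hypoxia-inducible factor turns on, had 336, 304 and 457 normalised counts with CX-4945, against 357, 376 and 379 with MS-275. The CX-4945 samples lay on both sides of the MS-275 samples, and the log2 fold change was -0.02 (SE 0.16, 95% interval -0.36 to 0.33). miR-21, a miRNA of injury and reactive glia, averaged 1670 ± 310 with CX-4945 and 1906 ± 429 with MS-275 (SD, n = 3 each; log2 fold change -0.19, SE 0.21, or -0.07 without CX-4945 replicate 1). miR-146a, which damps NF-kB signalling, stood at -0.10 (SE 0.15), and the 4 inflammatory probes had a median of -0.15 with 1 higher and 3 lower means. The 4 tested p53-induced probes all had a lower mean with CX-4945, with a median of -0.23. miR-34b-5p, the farthest of them at -0.53 (SE 0.29), had 21.1, 53.8 and 26.8 with CX-4945 and 48.7, 53.1 and 43.9 with MS-275, which overlap. Its 95% interval reached -1.14, and it stood at -0.31 without CX-4945 replicate 1 and -1.0 without replicate 2. miR-34a stood at -0.09 (SE 0.22). The summed normalised count of the 4 was 164, 207 and 198 with CX-4945, 219, 238 and 223 with MS-275, and 198, 192 and 208 with OGD alone. Every CX-4945 sum lay below every MS-275 sum, and the CX-4945 sums overlapped those of OGD alone. The sums of all the other lists overlapped between the drugs. With many lists looked at, a single list without overlap can be met by chance. The smallest exact two-sided permutation p with 3 samples a side is 0.1. The counts of miR-34b-5p and miR-192 in these sums lie near the limit. The sums were not compared under the other scalings of lanes.

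miRNAs that repress chromatin enzymes were looked at because MS-275 acts on histone deacetylases. Of 6 tested, 4 had a higher and 2 a lower mean with CX-4945, with a median of 0.08 and none called. miR-22, which represses Hdac4, averaged 7570 ± 1507 with CX-4945 and 6657 ± 62.6 with MS-275 (SD, n = 3 each), a log2 fold change of 0.19 (SE 0.16). miR-26a and miR-26b and miR-101b and miR-101a, which repress the Polycomb enzyme Ezh2, stood at 0.13, 0.03, 0.13 and -0.16, and miR-140 at -0.20. Among larger families, 6 of the 7 miR-99/100 and miR-125 probes had a higher mean with CX-4945 (median 0.13, or -0.12 with mRNA scaling and -0.04 in the authors' signal, with miR-99a highest at 0.19 and miR-99b lowest at -0.22), and 4 of 5 miR-30 probes had a lower one (median -0.14). The miR-17-92 cluster with its paralogs split 4 to 4 (median -0.03), the miR-15/16 family 2 to 3 (median -0.01), the miR-23/27/24 clusters 2 to 3 (median -0.03) and the miR-181 family 1 to 2 (median -0.09). The Clcn5-intron cluster split 2 to 1 (median 0.05).

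The imprinted Dlk1-Dio3 region gave the same picture. The 6 tested probes of the Rtl1-antisense cluster split 3 to 3 with a median of 0.00, and the 21 tested of the miR-379/miR-410 cluster split 10 to 11 with a median of -0.01. miR-127 averaged 272 ± 75.4 with CX-4945, 274 ± 49.2 with MS-275 and 184 ± 28.0 with OGD alone (SD, n = 3 each). The log2 fold change of miR-127 between the drugs was -0.02 (SE 0.20). Set against the OGD samples that both share, the miR-379/miR-410 cluster had a median of 0.29 with CX-4945 and 0.23 with MS-275.

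**Figure D5:**
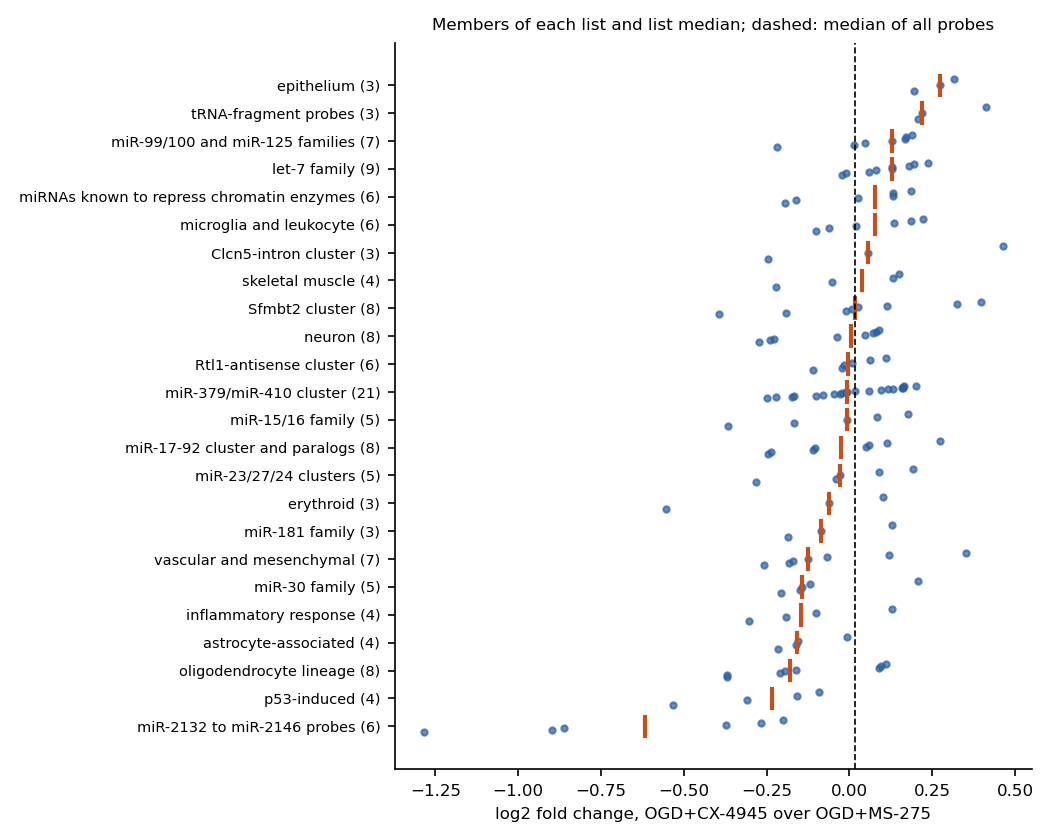
Log2 fold change of OGD+CX-4945 over OGD+MS-275 for the tested members of each list (points) with the list median (bar), a list per row. The list medians run from -0.62 for the miR-2132 to miR-2146 probes to 0.27 for the epithelial probes, against 0.02 for all probes (dashed line).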

How the data were processed

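Small RNA of the 12 samples was read on an nCounter miRNA panel, per the labels' protocols. A column of the deposited raw table is 1 lane, per the file headers, and holds the authors' barcode counts before any normalisation. How the authors made their processed signal, deposited in a second table, is not stated. limma on log2(value + 1) of that signal was an alternative. The 1 row that names no probe stayed out. Raw counts were fitted with edgeR 4.0.16 (TMM factors, robust quasi-likelihood test, R 4.3.3) over all 12 samples with a mean for each of the 4 groups, and the contrast was OGD+CX-4945 minus OGD+MS-275. p-values were adjusted by Benjamini-Hochberg over the 217 tested probes at 0.05. Normalised counts are counts over the lane's effective library size, scaled to the mean lane. The biological coefficient of variation was 16.6%. Alternatives used limma 3.58.1 and DESeq2 1.42.0. The test was tried on simulated data. Total counts ran from 255154 to 542933 per lane, and intervals cover the spread between these samples only. Named miRNAs were the 12 smallest p in each direction among probes that passed the limit in each of the 3 samples with the higher mean, plus a set of cell-type and stress miRNAs and the members of the lists. Members and lists were chosen with earlier results of these data known.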

Additional observations from a re-analysis of the deposited data

How the results depend on the processing

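The count of probes called between the drugs was 0 under 18 of the 19 alternatives, and 1 with lanes scaled by the mRNA probes, where miR-2134 stood at -1.50 (edgeR adjusted p = 0.0499). The cause was not tested; the mRNA probes had a geometric mean of 1059 ± 200 counts with CX-4945 and 924 ± 51.7 with MS-275 (SD, n = 3 each). Leaving out each replicate in turn gave 0 every time. The number of probes at an unadjusted p below 0.05, 9 with TMM factors, was 16 with upper-quartile factors, 5 with ligation scaling, 5 with mRNA scaling, 20 of 566 with no filter, 4 of 150 with the stricter filter, 4 with the negative-control mean subtracted, 5 with only the 6 drug samples, 8 with a ligation covariate, 3 in the authors' processed signal, and 3 to 19 without 1 replicate. Scaling moved the centre. The share of probes with a higher mean with CX-4945 was 52.1% with TMM factors, 77.0% with upper-quartile factors, 75.1% with ligation scaling, 5.53% with mRNA scaling and 18.0% in the authors' signal, with medians of 0.02, 0.17, 0.18, -0.22 and -0.17. Directions of small differences, let-7 included, therefore hold relative to that median. No paired analysis was possible because the labels give the samples of the groups no shared replicate numbers. The numbers in the sample titles fall into 3 sets, of which CX-4945 replicate 3 is in a set without MS-275, and the labels do not say what they mark. A fit within these sets could be run, and does not pair samples. With the sets as a block 0 probes were called and 28 had an unadjusted p below 0.05 (lowest adjusted p 0.202 in edgeR), or 16 with 2 sets. Depth limits miR-678, miR-500, miR-192, miR-2133 and miR-34b-5p, whose counts lie near the limit. Of the probes with an unadjusted p below 0.05, miR-144, miR-338-5p, miR-669f and miR-2134 were also not above the limit in every lane. The stricter filter left them out.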

Other observations

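miR-7a and miR-7b varied widely within both drug groups, with overlap between the drugs. miR-7a, a miRNA of endocrine and neural cells that also promotes oligodendrocyte formation, had 725, 1325 and 327 normalised counts with CX-4945 and 1383, 415 and 1266 with MS-275, with 514, 890 and 435 in OGD alone. miR-7b followed with 108, 186 and 45.2 with CX-4945 and 139, 35.7 and 135 with MS-275. CX-4945 replicate 3 and MS-275 replicate 2 were the low samples for both. The same lanes were low for miR-543 of the miR-379/miR-410 cluster, with 345, 501 and 283 with CX-4945 and 401, 218 and 390 with MS-275, and for miR-539, with 127, 137 and 82.6 with CX-4945 and 115, 62.7 and 140 with MS-275. The second principal component of the 12 lanes, 20.8% of the variance, had miR-7b, miR-7a, miR-409-5p, miR-543, miR-539 and miR-323-3p as its leading probes. Its scores were 0.81, 3.28 and -2.36 with CX-4945, 2.14, -2.38 and 2.05 with MS-275, -0.22, -0.28 and -2.20 in OGD alone and 1.96, -0.90 and -1.89 in Control. The component was found on these same values, so its leading probes are a description.

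The first component, 40.3% of the variance, had miR-2134, miR-2140, miR-2141, miR-2133, miR-2146 and miR-678 as leading probes. Its scores were -2.89, 2.29 and 2.15 with CX-4945, against 2.60, 4.23 and 2.90 with MS-275. CX-4945 replicate 1 scored among the Control samples, at -2.70, -2.94 and -0.84, and the MS-275 samples all scored above the CX-4945 samples. This component too was found on these same values and is a description. CX-4945 replicate 1 had a ligation value of 1667, and the other drug lanes had 2793 to 3787. OGD replicate 2 had the lowest score, -3.71, and the lowest ligation value, 1109. Whether the component follows ligation or drug was not tested.

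Of the 33 viral miRNA probes, none was above the limit in any lane (0 values).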
